A study of Mus musculus with 9 samples.

Results

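The genes described here are 10 genes of angiopoietin-TIE signalling and of the lymphatic-type endothelium of Schlemm canal, out of 35275 genes counted in the anterior segment of the newborn mouse eye: Angpt1, Angpt2, Svep1, Tek, Tie1, Ptprb, Vegfc, Flt4, Prox1 and Lyve1. They were taken by symbol from the table of read counts, 1 Ensembl identifier each on the mouse build GRCm38, and all 10 of 10 had enough counts to be tested. The 6 mutant samples carried 1 copy of the Col4a1 allele G1344D, a missense change in a chain of the basement membrane collagen IV, and the 3 wildtype samples were Col4a1+/+. All were taken at postnatal day 0, and the labels name no other allele and no treatment in either group. A sample was a pool of 4 eyes from 2 mice, from which the lens had been taken out while cornea, iris, ciliary body and outflow tissue remained. The replicates are therefore pools, and the p-values below describe variation between pools.

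Angiopoietins are secreted ligands of the endothelial receptor tyrosine kinase TIE2, encoded by Tek. ANGPT1 activates the receptor, ANGPT2 activates or blocks it depending on context, the related receptor TIE1 modulates it, and the phosphatase VE-PTP, encoded by Ptprb, removes its phosphates. Schlemm canal, the vessel that drains aqueous humour at the angle of the eye, forms after birth in the mouse from limbal veins, needs this pathway, and takes on part of the lymphatic programme, including PROX1 and the VEGF-C receptor VEGFR3 (Flt4), while its endothelium largely lacks LYVE1.

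Total counts ran from 28440874 to 35306935 in the mutant libraries and from 25995340 to 28356439 in the wildtype libraries. Values below are CPM, read counts scaled to library size with TMM factors, and each fold change comes from an edgeR quasi-likelihood fit over 15825 genes with Benjamini-Hochberg adjustment. Libraries differed in Gm42418, a row that collects ribosomal RNA reads: it took 4.11% to 6.91% of counts in 5 mutant libraries and 0.0673% in mutant 2, and 4.54% in wildtype 1 but 0.0663% and 0.0708% in wildtype 2 and 3. Wildtype 2 stood apart from the other wildtypes in some genes of lymphatic vessels, among them Lyve1. The fold changes of Lyve1, Flt4 and Prox1 are given with and without it. Levels relative to endothelial markers, levels per kilobase and the likeness of patterns include it. Corneal epithelial, stromal and pigment markers were present in every library. The summed level of 18 lens markers was 41.7 to 50.1 CPM in mutants and 55.1 to 66.3 CPM in wildtypes. Most of that sum was 1 gene, Bfsp2, at 32.5 ± 2.26 CPM in mutants and 42.5 ± 3.47 CPM in wildtypes. Crybb2, Lim2, Birc7 and Lctl were at 0 throughout. Over all tested genes edgeR called 9.70% higher and 9.47% lower in the mutant. Called higher and lower were 0 and 1 of 9 tested lens markers, 6 and 4 of 15 mural, 5 and 3 of 20 mesenchyme and stroma, and 1 and 1 of 10 corneal epithelial markers. For 11 retinal, 8 skeletal muscle and 8 pigment markers both counts were 0 in edgeR, and at an unadjusted p under 0.05 a single pigment marker was higher, while DESeq2 called 0 and limma-voom 1 muscle marker higher and 1 pigment marker in each direction.

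Of the 10 genes, 5 were higher in the mutant (Ptprb, Svep1, Tie1, Angpt2 and Tek), 1 was lower (Lyve1) and 4 did not pass the test (Angpt1, Vegfc, Flt4 and Prox1), at an edgeR adjusted p under 0.05. Across all tested genes 9.70% were called higher and 9.47% lower. The median log2 fold change was 0.40 over the 10 genes and -0.00193 over all tested genes. Ptprb and Svep1 roughly doubled, and the 3 other rises were between 1.28-fold and 1.38-fold. For Ptprb, Svep1 and Tie1 the lowest mutant exceeded the highest wildtype, and for Lyve1 the highest mutant fell short of the lowest wildtype. In bulk tissue more cells of a type and more RNA per cell cannot be told apart. Over all tested genes 10.8% separated with the mutant higher and 11.2% with the mutant lower.

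**Figure D1:**
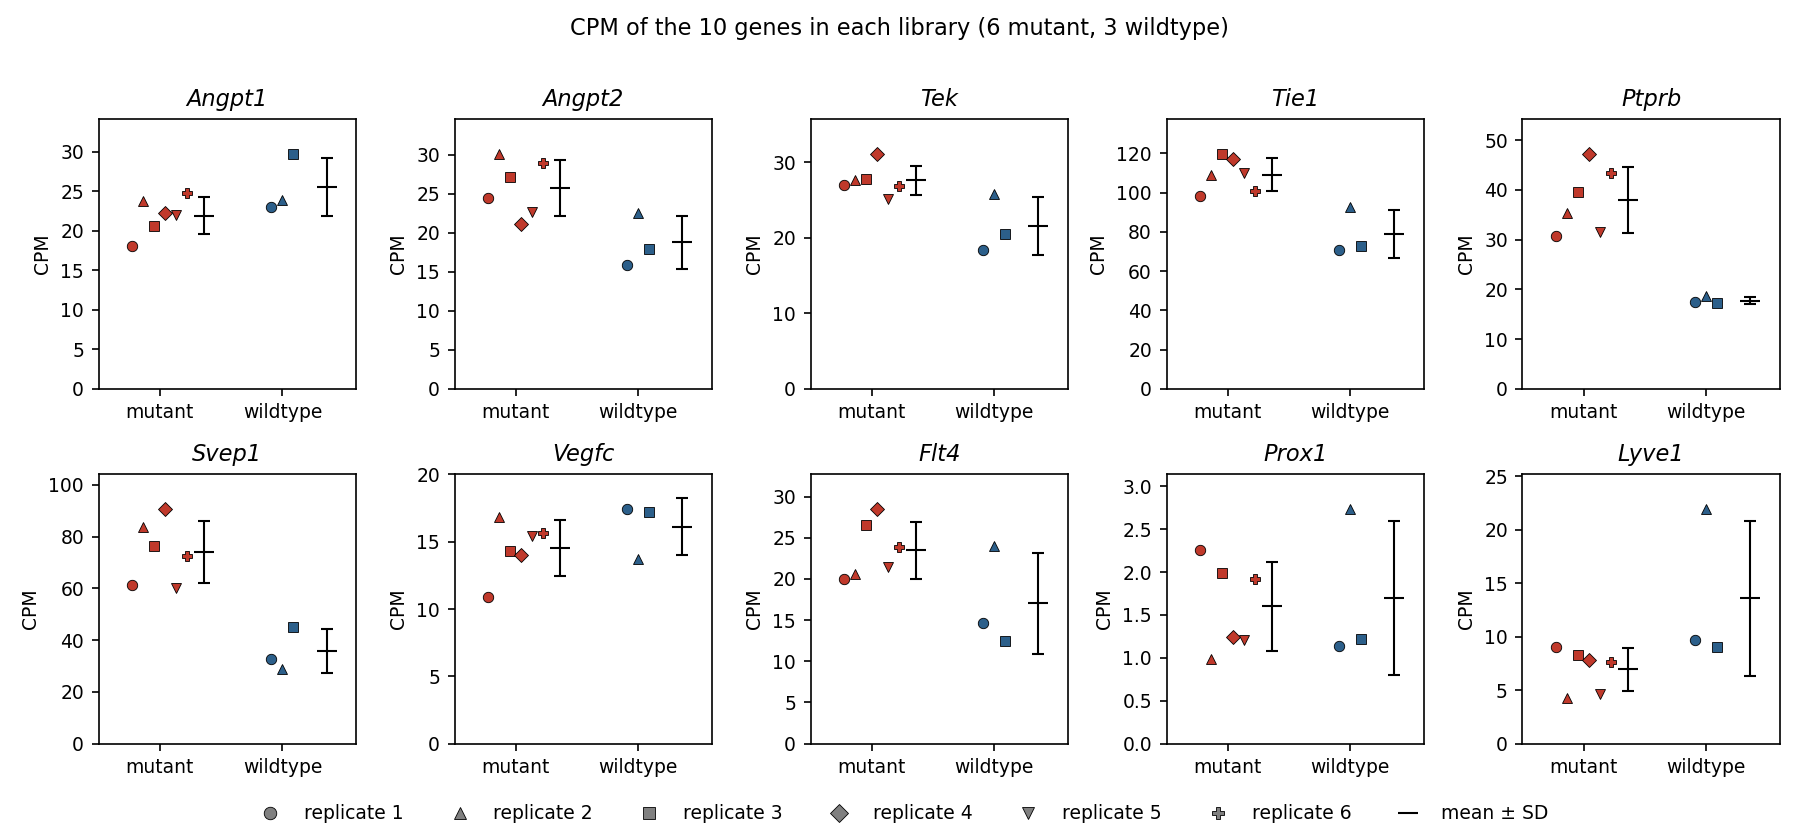
Each panel plots CPM (linear axis from 0) of 1 gene in 6 mutant libraries (left, red) and 3 wildtype libraries (right, blue), with the mean ± SD beside the points and a marker shape per replicate number. Ptprb and Svep1 separate the groups widely, while wildtype 2 (blue triangle) stands far above the other wildtype libraries for Lyve1 at 22.0 CPM.

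Among the ligands, Angpt2 rose and Angpt1 did not pass the test. Angpt2 (ENSMUSG00000031465, chromosome 8, 18690263 to 18741562, minus strand, within Mcph1 of the other strand, with no shared exon bases) had a lowest, median and highest value of 21.1, 25.8 and 30.1 CPM in mutants, against 15.9, 22.5 and 17.9 CPM in wildtype 1 to 3. Mutant 4 lay below wildtype 2, and the other 5 mutants lay above every wildtype. The mean was 25.7 ± 3.56 CPM in mutants and 18.8 ± 3.40 CPM in wildtypes (SD, n = 6 and 3), a fold of 1.37 with edgeR adjusted p = 0.0307 (log2 0.45 and its SE 0.138). The Angpt2 call was lost in 5 of 9 fits that each left out 1 library (mutant 2, 3 or 6, or wildtype 1 or 3; highest adjusted p = 0.193, without wildtype 1) and with library totals in place of TMM (adjusted p = 0.0540).

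Angpt1 (ENSMUSG00000022309, chromosome 15, 42424723 to 42676977, minus strand) had a lowest, median and highest value of 18.1, 22.1 and 24.8 CPM in mutants, against 23.0, 23.9 and 29.7 CPM in wildtype 1 to 3. The groups overlapped, with 4 of 6 mutants below every wildtype. Its mean was 21.9 ± 2.37 CPM in mutants and 25.5 ± 3.66 CPM in wildtypes, a log2 fold change of -0.22 with a 95% interval of -0.47 to 0.03 (edgeR adjusted p = 0.208). Limma-voom with quality weights called Angpt1 lower (log2 -0.32, adjusted p = 0.0222). The antisense gene Gm17473 shares 14.2% of the exon bases of Angpt1 and held at most 4 counts in a library.

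The ratio of Angpt2 to Angpt1 reads within a library separated the groups, although neither ligand did alone. It was 1.35, 1.26, 1.31, 0.949, 1.03 and 1.17 in mutant 1 to 6, against 0.693, 0.942 and 0.604 in wildtype 1 to 3. Every mutant ratio lay above every wildtype ratio, with mutant 4 only just above wildtype 2. The mean log2 ratio was 0.23 ± 0.20 in mutants and -0.45 ± 0.33 in wildtypes (SD, n = 6 and 3), a difference of 0.67 (exact two-sided permutation p = 0.0119, the smallest that 84 splits allow, and 0.0238 adjusted over the 2 ratios tested). Among the libraries rich in Gm42418 the difference was 0.73 (5 mutants and wildtype 1) and among those poor in it 0.74 (mutant 2 and wildtype 2 and 3). These are ratios of read counts, not of transcripts, since the exons of the genes differ in length. In bulk tissue the ratio can also move with the share of the cells that carry each ligand. Of 20 pan-endothelial markers 11 were called higher and 1 lower in the mutant, and the part of cell share in this ratio was not tested.

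**Figure D2:**
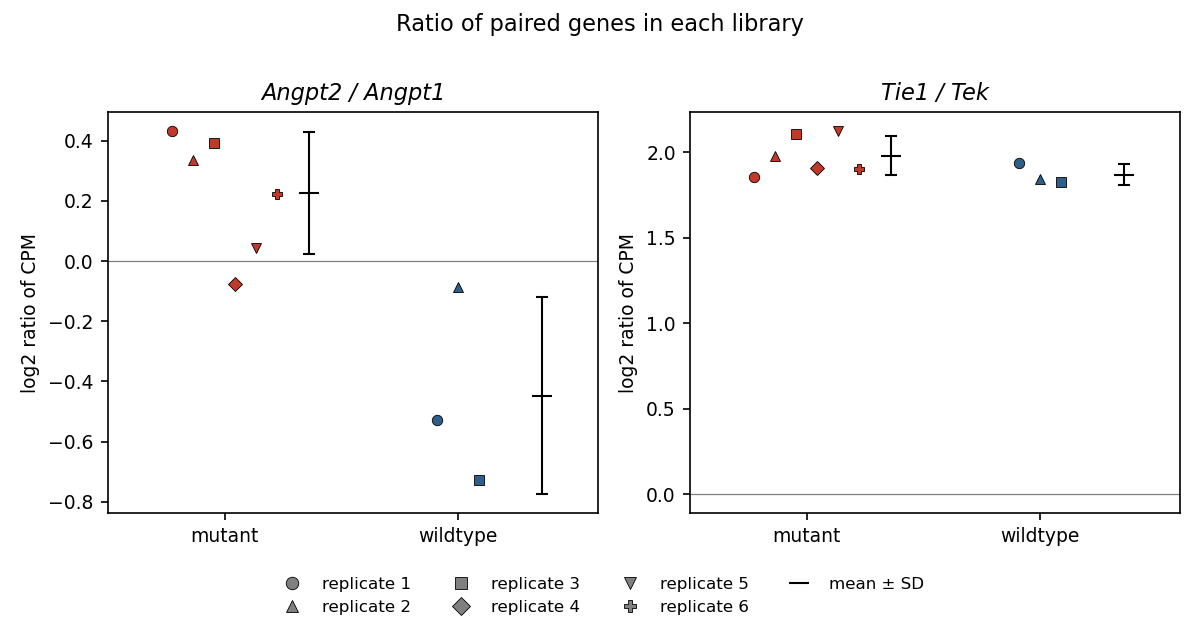
The log2 ratio of CPM within each library is plotted for Angpt2 over Angpt1 (left) and Tie1 over Tek (right), with mutants to the left of wildtypes in each panel and the mean ± SD beside them. For the ligands all 6 mutants lie above the 3 wildtypes, while for the receptors the groups overlap.

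Svep1, which encodes a large secreted matrix protein that binds TIE1 and integrins and is needed for lymphatic vessel growth in mouse and zebrafish, was 2.08-fold higher. It had a lowest, median and highest value of 60.2, 74.3 and 90.7 CPM in mutants, against 32.6, 29.0 and 45.2 CPM in wildtype 1 to 3. No mutant library came down to the highest wildtype library. The mean was 74.1 ± 12.1 CPM in mutants and 35.6 ± 8.50 CPM in wildtypes (log2 1.06, SE 0.152, edgeR adjusted p = 0.000876). Svep1 lies on chromosome 4 (ENSMUSG00000028369, 58042442 to 58206859, minus strand), and the antisense gene Gm26889, which shares 13.9% of its exon bases, held 0 counts in every library. Its exons sum to 16117 bases, longer than in 98.1% of tested genes, and long genes read higher in the mutant libraries: the smooth trend at that length was 0.26 on the log2 scale. With that trend removed Svep1 was still called higher (log2 0.78, adjusted p = 0.00162), as it was without each library in turn (adjusted p at most 0.0142).

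Both receptor genes rose. Tek (ENSMUSG00000006386, chromosome 4, 94739289 to 94874976, plus strand) had a lowest, median and highest value of 25.1, 27.4 and 31.1 CPM in mutants, against 18.4, 25.8 and 20.6 CPM in wildtype 1 to 3. Only mutant 5 fell under wildtype 2, and by less than 1 CPM. The mean was 27.6 ± 1.96 CPM in mutants and 21.6 ± 3.80 CPM in wildtypes, a fold of 1.28 with edgeR adjusted p = 0.0408 (log2 0.35 and its SE 0.115). This call lay close to the threshold: it was lost in 6 of 9 fits without 1 library (mutant 2, 3, 4 or 6, or wildtype 1 or 3; highest adjusted p = 0.244) and with the length trend removed (adjusted p = 0.0657), upper-quartile factors (0.0507), library totals (0.0742), the Gm42418 covariate (0.0512), the replicate block (0.103) or replicates 1 to 3 without the block (0.107).

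Tie1 (ENSMUSG00000033191, chromosome 4, 118471191 to 118490061, minus strand) had a lowest, median and highest value of 98.2, 110 and 120 CPM in mutants, against 70.7, 92.8 and 73.1 CPM in wildtype 1 to 3. The groups did not overlap. Its mean was 109 ± 8.53 CPM in mutants and 78.9 ± 12.1 CPM in wildtypes, a fold of 1.38 with edgeR adjusted p = 0.00526 (log2 0.47 and its SE 0.0979), and the call was lost only without wildtype 1 (adjusted p = 0.0555) among the settings run. The Tie1 to Tek ratio of reads was between 3.62 and 4.37 in mutants, against 3.83, 3.59 and 3.54 in wildtype 1 to 3. That ratio overlapped between the groups (mean log2 difference 0.11, exact two-sided permutation p = 0.167, also 0.167 adjusted over the 2 ratios).

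The promoters of the called genes are shown because Tie1, Tek and Svep1 all rose and lie on chromosome 4, far apart. Of the 10 genes, 6 have an entry in the RefSeq promoter table (GRCm38.p6), and of the 5 that rose, these 3. Each sequence is the 250 bases before the start in that promoter table, 5′ to 3′ on the gene's strand. The windows are chr4:118489850-118490099 (minus) for Tie1, chr4:94739039-94739288 (plus) for Tek and chr4:58206597-58206846 (minus) for Svep1. The Svep1 window and most of the Tie1 window lie inside the GENCODE gene spans given above, so these starts are not the ends of those spans. Capitals mark AGGAAG or its reverse complement CTTCCT, a core bound by ETS factors, the family to which the endothelial factor ERG belongs.
Tie1: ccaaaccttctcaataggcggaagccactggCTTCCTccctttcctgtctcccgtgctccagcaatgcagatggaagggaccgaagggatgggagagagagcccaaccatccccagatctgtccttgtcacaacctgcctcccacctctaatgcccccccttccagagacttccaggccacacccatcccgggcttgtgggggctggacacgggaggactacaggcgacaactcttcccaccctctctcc
Tek: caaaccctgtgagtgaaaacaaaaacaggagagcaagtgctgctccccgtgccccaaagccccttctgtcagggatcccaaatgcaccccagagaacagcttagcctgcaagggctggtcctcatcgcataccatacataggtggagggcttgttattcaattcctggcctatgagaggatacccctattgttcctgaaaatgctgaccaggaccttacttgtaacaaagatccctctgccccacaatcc
Svep1: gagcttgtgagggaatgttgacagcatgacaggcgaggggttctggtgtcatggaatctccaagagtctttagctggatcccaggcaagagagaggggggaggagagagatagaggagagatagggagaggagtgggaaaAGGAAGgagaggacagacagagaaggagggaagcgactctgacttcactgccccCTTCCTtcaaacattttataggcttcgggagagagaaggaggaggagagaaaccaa
The Tie1 window held 1 match, 219 bases before the start in the promoter table, the Svep1 window 2 matches at 110 and 56 bases, and the Tek window 0. Among all 32851 promoter windows of this length 29.5% held this core. The forkhead motif TGTTTAC or its reverse complement GTAAACA occurred in 3.17% of all windows and in 0 of these 3. No match says only that these letters are not in this window.

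Ptprb rose by about as much as Svep1, and which of the pair was higher turned with the fit. This phosphatase gene (ENSMUSG00000020154, chromosome 10, 116275523 to 116389535, plus strand) had a lowest, median and highest value of 30.7, 37.4 and 47.2 CPM in mutants, against 17.4, 18.6 and 17.3 CPM in wildtype 1 to 3. The wildtype libraries lay within about 1 CPM of each other and every mutant stood well above them. The mean was 37.9 ± 6.65 CPM in mutants and 17.7 ± 0.712 CPM in wildtypes, a fold of 2.14 with edgeR adjusted p = 0.000240 (log2 1.095 and its SE 0.137). Its exons sum to 13333 bases, longer than in 96.3% of tested genes, where the length trend was 0.24 on the log2 scale. With the trend removed it was still called higher (log2 0.84, adjusted p = 8.96e-05), and so it was without each library in turn (adjusted p at most 0.00397).

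**Figure D3:**
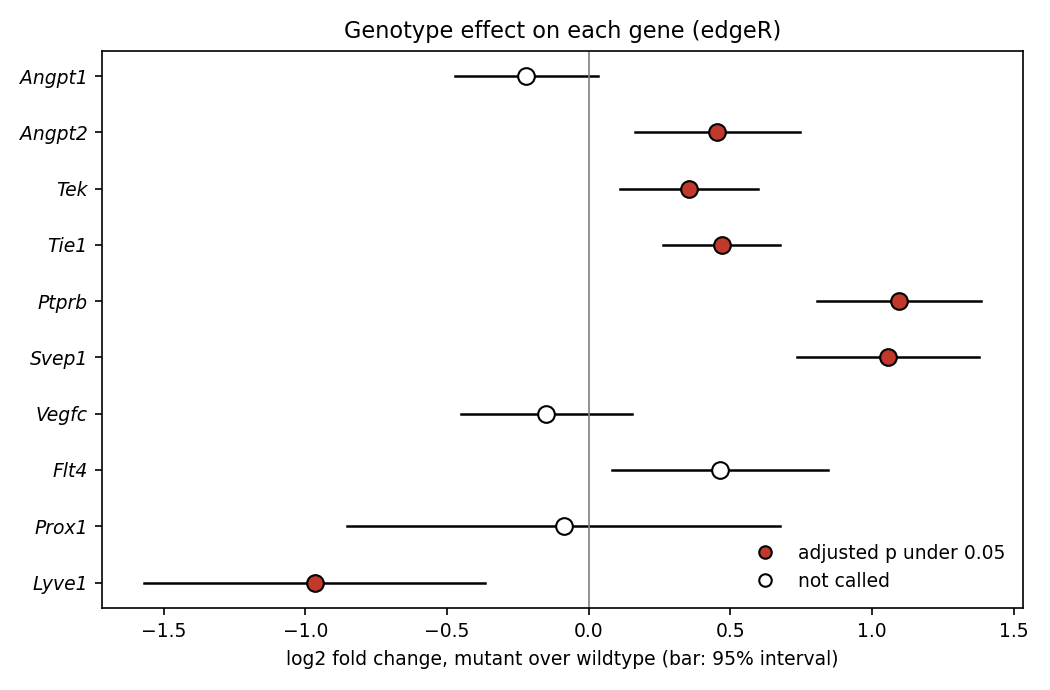
Points give the edgeR log2 fold change of mutant over wildtype for each gene, ordered by role from the angiopoietins down, with 95% intervals; filled points passed an adjusted p of 0.05. Ptprb and Svep1 lie near 1, Tek, Tie1 and Angpt2 between 0.35 and 0.47, and Lyve1 near -0.97 with the second widest interval after Prox1.

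Vegfc, the ligand of VEGFR3 that drives lymphatic growth, did not pass the test. Vegfc (ENSMUSG00000031520, chromosome 8, 54077606 to 54187096, plus strand) averaged 14.5 ± 2.06 CPM in mutants and 16.1 ± 2.09 CPM in wildtypes, a log2 fold change of -0.15 with a 95% interval of -0.45 to 0.15 (edgeR adjusted p = 0.5001). The lowest, median and highest mutant values were 10.9, 14.9 and 16.9 CPM, against 17.4, 13.7 and 17.2 CPM in wildtype 1 to 3. The groups overlapped, and the lowest wildtype value was that of wildtype 2.

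Flt4, its receptor gene, stood higher on average without passing the test. Flt4 (ENSMUSG00000020357, chromosome 11, 49609263 to 49652739, plus strand) had a lowest, median and highest value of 19.95, 22.6 and 28.5 CPM in mutants, against 14.6, 24.0 and 12.5 CPM in wildtype 1 to 3. All 6 mutants exceeded wildtype 1 and 3, but only 2 exceeded wildtype 2. The mean was 23.5 ± 3.47 CPM in mutants and 17.0 ± 6.12 CPM in wildtypes (log2 0.46, SE 0.179, 95% interval 0.08 to 0.84, edgeR adjusted p = 0.0805). Without wildtype 2 the log2 fold change was 0.80 and Flt4 was called higher (adjusted p = 0.00557), and DESeq2 and limma-voom called it higher with all libraries (adjusted p = 0.0459 and 0.00184), while with the length trend removed the adjusted p was 0.214.

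Prox1, the transcription factor gene that sets lymphatic identity and is also active in lens fibres, was the least abundant of the 10. Prox1 (ENSMUSG00000010175, chromosome 1, 190118035 to 190170714, minus strand) had 31 to 73 counts per library. The lowest, median and highest values were 0.983, 1.58 and 2.25 CPM in mutants, against 1.14, 2.74 and 1.22 CPM in wildtype 1 to 3. The groups overlapped and wildtype 2 was the highest library of all. The log2 fold change was -0.09 with a 95% interval of -0.85 to 0.68 (edgeR adjusted p = 0.892), and without wildtype 2 it was 0.44 (adjusted p = 0.476).

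Lyve1, a hyaluronan receptor gene of lymphatic vessels and of some tissue macrophages, was the member called lower, and its size rested on wildtype 2. Lyve1 (ENSMUSG00000030787, chromosome 7, 110850607 to 110863239, minus strand) had a lowest, median and highest value of 4.30, 7.74 and 9.04 CPM in mutants, against 9.73, 22.0 and 9.06 CPM in wildtype 1 to 3. The groups did not overlap, but the highest mutant and the lowest wildtype differed by only about 0.02 CPM. The mean was 6.96 ± 1.99 CPM in mutants and 13.6 ± 7.27 CPM in wildtypes (log2 -0.97, SE 0.282, edgeR adjusted p = 0.0277; exact two-sided permutation p = 0.0357). Without wildtype 2 the log2 fold change of Lyve1 was -0.43 and the call was lost (adjusted p = 0.262), and it was lost as well without wildtype 1 (adjusted p = 0.0536), with the length trend removed (0.0917), the Gm42418 covariate (0.0880), the replicate block (0.309), replicates 1 to 3 without the block (0.127), no filter on low counts (0.0704) or limma-voom (0.05003).

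Of the 40 genes of the lymphatic and Schlemm canal list, 25 were highest in wildtype 2 among the wildtype libraries, as were 12 of 20 pan-endothelial markers, 7 of the 10 genes described here and 36.7% of all tested genes. Mmrn1, a multimerin gene, and Ccl21a, a chemokine gene, are used as markers of lymphatic endothelium and were picked from that list after their values had been seen, because wildtype 2 stood far above the other libraries. Other genes of the list, such as Reln, Nr2f2 and Itga9, were not highest in wildtype 2. Mmrn1 ran from 3.56 to 11.3 CPM in mutants, against 6.42, 24.8 and 3.56 CPM in wildtype 1 to 3. Ccl21a ran from 0.0281 to 3.37 CPM in mutants, against 2.99, 12.1 and 1.55 CPM in wildtype 1 to 3. For both genes wildtype 2 was the highest of all 9 libraries, and neither passed the test (edgeR adjusted p = 0.334 and 0.234). Summed macrophage markers, which could also carry Lyve1, ran from 787 to 961 CPM in mutants and from 709 to 773 CPM in wildtypes, and 6 of 19 tested were called higher and 0 lower (edgeR; 0 lower also at an unadjusted p under 0.05, in DESeq2 and in limma-voom). The part of lymphatic vessel or macrophage content in the Lyve1 difference was not tested.

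**Figure D4:**
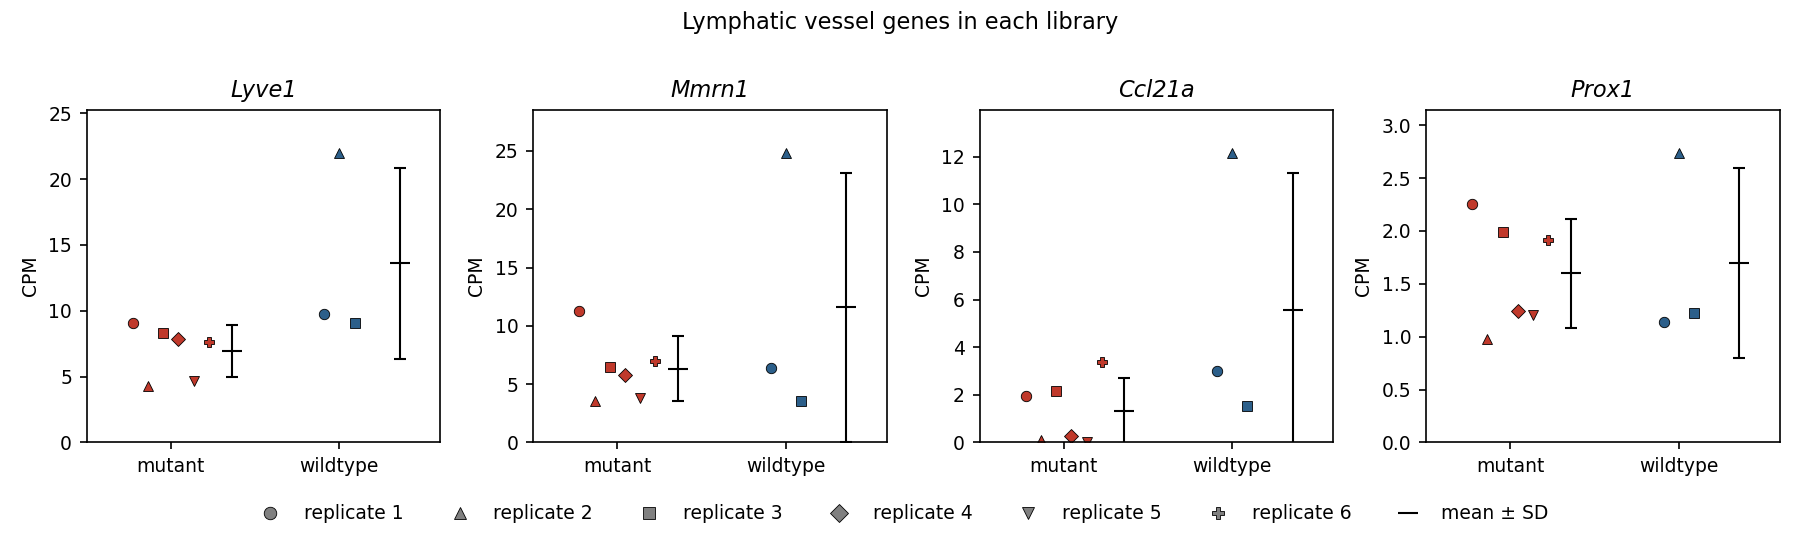
CPM (linear axes from 0) of Lyve1, Mmrn1, Ccl21a and Prox1 in 6 mutant libraries (left) and 3 wildtype libraries (right), with mean ± SD. In each panel wildtype 2 (blue triangle) is the highest of the 9 libraries.

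Pan-endothelial markers were also higher in the mutant. Of 20 pan-endothelial markers other than the genes above, 11 were called higher and 1 lower (median log2 difference 0.38), beside 9.70% and 9.47% of all tested genes. Their summed level was 1262 to 1396 CPM in mutants and 1006 to 1166 CPM in wildtypes. Vwf, the von Willebrand factor gene, rose most, to 82.2 ± 16.7 CPM in mutants, against 32.1 ± 2.50 CPM in wildtypes (log2 1.35, edgeR adjusted p = 8.07e-05). Erg, an ETS transcription factor gene, was the marker that fell (133 ± 14.5 CPM in mutants and 189 ± 32.2 CPM in wildtypes, adjusted p = 0.00476). Without wildtype 1, 2 of the 20 were called higher, and 6 without wildtype 3, where 303 and 849 genes across the table were called higher, against 1535 with all libraries.

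Set against the mean log2 level of the endothelial genes Pecam1 and Cdh5 in the same library, which were themselves called higher, the members split. Ptprb stood at -1.56 ± 0.22 in mutants and -2.05 ± 0.18 in wildtypes, a difference of 0.49 on the log2 scale. Its groups only just separated, with -1.863 in the lowest mutant and -1.873 in the highest wildtype. Svep1 stood 0.48 higher in mutants with overlap. The exon length trend, 0.24 for Ptprb and 0.26 for Svep1 on the log2 scale, was not removed from these levels. Lyve1 (-4.03 ± 0.37 in mutants and -2.55 ± 0.50 in wildtypes) and Angpt1 (-2.34 ± 0.24 in mutants and -1.53 ± 0.31 in wildtypes) were lower relative to these markers without overlap. Vegfc differed by -0.74 and Prox1 by -0.62, both with overlap. Since Pecam1 rose by log2 0.49 and Cdh5 by 0.67, a gene with no change of its own also reads lower on this base. Tek differed by -0.22, Tie1 by -0.11, Angpt2 by -0.13 and Flt4 by -0.08, each with overlap, and these 4 signs turned when all 20 markers formed the base (0.05, 0.16, 0.14 and 0.19). On that base Ptprb differed by 0.76, Svep1 by 0.75, Lyve1 by -1.21, Angpt1 by -0.54, Vegfc by -0.47 and Prox1 by -0.35. The part of endothelial content in each rise was not tested.

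Per kilobase of exon, Tie1 was the most abundant of the 10 in both groups, at 22.2 ± 1.73 CPM per kb in mutants and 16.0 ± 2.47 CPM per kb in wildtypes, and Prox1 the least, at 0.191 ± 0.0616 CPM per kb in mutants and 0.203 ± 0.107 CPM per kb in wildtypes. In mutants the order below Tie1 was Angpt2 (6.98), Vegfc (5.94), Tek (5.86), Svep1 (4.596), Angpt1 (4.21), Flt4 (2.85), Ptprb (2.84) and Lyve1 (2.38 CPM per kb). From Angpt2 down to Angpt1 neighbours in that order overlapped, as did those from Flt4 down to Lyve1, while Angpt1 lay just clear of Flt4 and Lyve1 clear of Prox1. In wildtypes the order was Vegfc (6.59), Angpt2 (5.09), Angpt1 (4.91), Lyve1 (4.65), Tek (4.58), Svep1 (2.21), Flt4 (2.07) and Ptprb (1.33 CPM per kb), where Ptprb lay clear of Flt4, and Tek of Svep1. The place of Lyve1 there rests on wildtype 2, with 3.33, 7.53 and 3.10 CPM per kb in wildtype 1 to 3.

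Within the libraries rich in Gm42418 (5 mutants and wildtype 1) the mean log2 difference of mutant from wildtype was 1.13 for Svep1, 1.12 for Ptprb, 0.62 for Tie1, 0.63 for Angpt2, 0.58 for Tek, 0.71 for Flt4 and -0.41 for Lyve1. Within those poor in it (mutant 2 and wildtype 2 and 3) it was 1.204 for Svep1, 0.98 for Ptprb, 0.41 for Tie1, 0.58 for Angpt2, 0.26 for Tek, 0.24 for Flt4 and -1.70 for Lyve1. Prox1 and Vegfc changed sign between these sets. Each set holds 1 library of one genotype, so these are values with no test.

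Of 26 partners and targets of TIE signalling, 5 were called higher and 1 lower (median log2 difference 0.08), beside 9.70% and 9.47% of all tested genes. Pdgfb, the endothelial growth factor gene that recruits pericytes, rose to 35.8 ± 2.78 CPM in mutants, against 23.1 ± 1.40 CPM in wildtypes (1.55-fold, edgeR adjusted p = 0.00122). Foxo3, a forkhead factor gene restrained by AKT, rose 1.32-fold, and Pik3r1, a PI3-kinase regulatory subunit gene, 1.24-fold, but neither was called without wildtype 1 or 3 or with the length trend removed. Angptl1, an angiopoietin-like gene, fell to 35.8 ± 5.31 CPM in mutants, against 51.9 ± 3.56 CPM in wildtypes (log2 -0.54, adjusted p = 0.00582). In this list 1 gene was called higher without wildtype 1, 1 without wildtype 3, 8 without wildtype 2 and 1 with the length trend removed, where 3 were called lower.

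Of 40 further lymphatic and Schlemm canal genes, 14 were called higher and 0 lower in edgeR, with a median log2 difference of 0.30. Over all 15825 tested genes the shares were 9.70% and 9.47%. For the list, at an unadjusted p under 0.05 it was 22 and 0, in DESeq2 17 and 0 and in limma-voom 20 and 0. Over all tested genes DESeq2 called 1957 higher and 1817 lower, and limma-voom 2359 and 2335. Stab1, a scavenger receptor gene of sinusoidal and lymphatic endothelium and of macrophages, rose 1.95-fold to 57.1 ± 7.97 CPM in mutants, against 29.3 ± 3.57 CPM in wildtypes (adjusted p = 0.000368). Nrp2, the co-receptor gene for VEGF-C, rose 1.48-fold to 308 ± 35.5 CPM in mutants, against 208 ± 30.9 CPM in wildtypes (adjusted p = 0.00373). Piezo1, a stretch-gated channel gene, rose 1.44-fold (adjusted p = 0.00555) and was not called without wildtype 1 (adjusted p = 0.0564). Without wildtype 1, 3 of the 40 were called higher, and 9 without wildtype 3. Of 8 other VEGF ligand and receptor genes 4 rose and 0 fell (edgeR; also 4 and 0 at an unadjusted p under 0.05 and in DESeq2, and 4 and 1 in limma-voom). The lists share some genes. These 4 were the receptor genes Nrp1, Nrp2, Kdr and Flt1, between 1.48-fold and 1.56-fold higher, of which 2 were called higher without wildtype 1, where Kdr (adjusted p = 0.05003) and Flt1 were not.

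Patterns were compared by the root mean square difference of centred log2 CPM over the 9 libraries, among 13257 other genes with a mean of at least 1 CPM. Genes without a symbol and those with Gm-number, Rik or clone-type names were left out of this search. Closest to Svep1 among those searched were Ptprj (0.17), Wipf3 (0.21) and Ptprb (0.22). Closest to Tek were Cttnbp2nl, Ski and Thsd4 (0.04, 0.05 and 0.05), and closest to Lyve1 were Htr2a, Atp8b3 and Hcn2 (0.26, 0.31 and 0.36). These distances are on the log2 scale and set beside the members' own spread of 0.55 for Svep1, 0.22 for Tek and 0.63 for Lyve1.

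**Figure D5:**
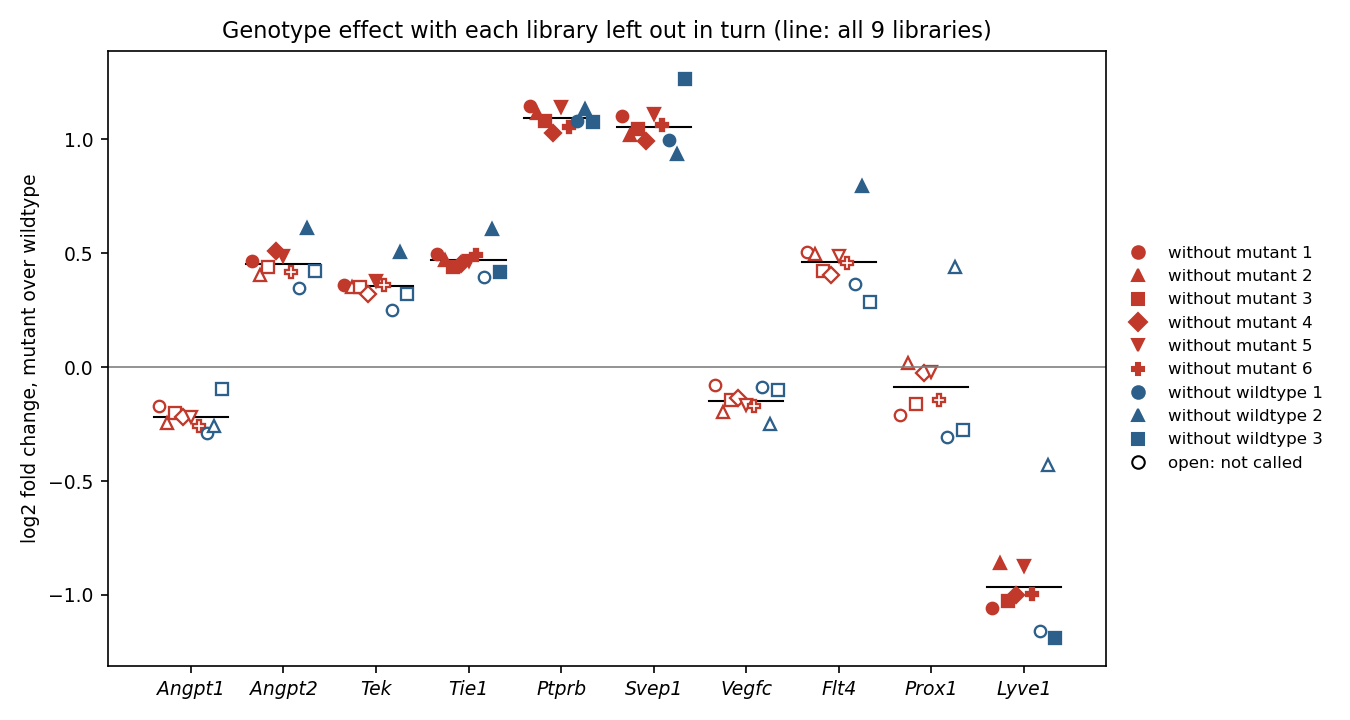
For each gene the log2 fold change of mutant over wildtype is plotted with each of the 9 libraries left out in turn (red, mutant left out; blue, wildtype left out; filled where the adjusted p was under 0.05), and the line gives the value with all libraries. Svep1 and Ptprb are filled throughout, and leaving out wildtype 2 (blue triangle) moves Lyve1 to -0.43, Flt4 to 0.80 and Prox1 to 0.44.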

How the data were processed

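The authors deposited a table of unnormalized whole-number counts of reads by Ensembl gene, with 1 column for each sample and 0 other columns. The submitters' processing notes name DESeq2 1.6.3, HTSeq 0.6.1 and STAR 2.6.1 along with GRCm38 (mm10), but not what each did. Annotation release and strand setting: not given in the sources used here. Overlapping and antisense genes therefore cannot be told apart by their reads. Symbols, positions and exon lengths came from GENCODE M21 (GRCm38), which held 34490 of 35275 identifiers. Genes without a symbol took at most 0.0690% of counts.

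Genotype was tested with edgeR 4.0.16 in R 4.3.3, using TMM, the default low-count filter by group, a robust quasi-likelihood fit on genotype over all 9 libraries, and Benjamini-Hochberg adjustment at 0.05 over 15825 genes. CPM use TMM library sizes, and log2 CPM a prior count of 2. Ratios were tested by exact permutation over 84 splits. Within each group every pair of libraries differed beyond counting error (chi-square per degree of freedom at least 15.6), so each counted as 1 replicate. Alternatives were DESeq2 1.42.0, voom with quality weights (limma 3.58.1), RLE, upper-quartile or no scaling factors, other filters, a smooth trend on exon length removed from each library (mgcv 1.9.3), a covariate splitting libraries at 1% of counts on Gm42418, a replicate block and leaving out each library.

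The 10 genes, the 12 other lists and the tests were chosen with earlier results of these data known. All 10 genes are named, and from each other list up to 4 tested genes with the lowest p, or genes stated as chosen afterwards. The likeness of patterns was searched for Tek, Svep1 and Lyve1.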

Additional observations from a re-analysis of the deposited data

Results flagged for a closer look

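Of 22 quantities measured over the 6 mutant libraries (CPM of each gene, the ratios and levels relative to Pecam1 and Cdh5), 1 had a library standing apart from the rest of its group. Tek relative to Pecam1 and Cdh5 was -1.79 on the log2 scale in mutant 2, against -2.001 in the next mutant library, a gap of 0.693 of the whole range of the group, above the critical value of 0.625. Tek itself was 27.7 CPM in mutant 2, near the mutant median of 27.4 CPM. Pecam1 (68.7 CPM) and Cdh5 (133 CPM) were lower in mutant 2 than in any other mutant, and it was the mutant poor in Gm42418. Chance alone marks about 1 in 20 such groups. The wildtype group of 3 is too small for this check.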

How the results depend on the processing

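Svep1 and Ptprb kept their call and direction under every alternative run (log2 fold change 0.78 to 1.27 and 0.84 to 1.149). Angpt2, Tek and Tie1 stayed positive and Lyve1, Angpt1 and Vegfc negative in all fits, but the calls of Angpt2, Tek, Tie1 and Lyve1 were lost in the fits named beside them. Prox1, never called, turned positive under limma-voom (log2 0.15), the replicate block (0.0874) and replicates 1 to 3 without the block (0.0377), and lay between -0.31 and 0.44 when single libraries were dropped. Of the 10 genes, 3 were called higher with library totals, against 5 in the main test, and 2 to 6 with a library left out. The count called lower, 1 in the main edgeR test, was 0 in edgeR with no filter, with the length trend removed, with the Gm42418 covariate, with the block and with replicates 1 to 3 alone (1, 2, 1, 0 and 1 at an unadjusted p under 0.05), and 0 to 1 with a library left out. DESeq2 called 6 higher and 1 lower, and limma-voom 6 higher and 1 lower, where the lower gene was Angpt1. Across the table, 1535 genes were called higher and 1499 lower. These counts were 2359 and 2335 with limma-voom, 787 and 660 with the replicate block, 857 and 733 with replicates 1 to 3 alone and 938 and 939 with the Gm42418 covariate. With the length trend removed 915 were higher. With a library left out they were 303 to 1688 and 235 to 1577, lowest without wildtype 1. Of 184 tested genes in the other lists, 46 were called higher and 11 lower, with 15 to 54 and 4 to 14 over the libraries left out, and 17, 7 and 6 lower with limma-voom, the covariate and replicates 1 to 3 alone. The difference in log2 ratio of Angpt2 to Angpt1 ran from 0.53 to 0.85 without a library (exact permutation p at most 0.0357). Groups that separate with all libraries stay separated when 1 is dropped, and fewer splits remain, so these p-values add no separate support.

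Replicate numbers 1 to 3 occur in both groups, and the deviations of same-numbered libraries correlated at 0.05, -0.01 and 0.04. Only the libraries numbered 1 correlated best with each other. With 3 libraries per group this check cannot tell whether the numbers pair the samples. With the block on these 6 libraries 4 genes were called higher, as without the block term. Replicates 1 to 3 without the block, the base of all endothelial markers and the endothelial values without a library were added after seeing the data. Low counts limit Prox1 most.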
